A study of Homo sapiens with 6 samples.

Results

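The miRs described here are 10 mature miRs known as markers of muscle, liver or blood cells, picked by name from the 2588 miR names of one count table: hsa-miR-1-3p, hsa-miR-133a-3p and hsa-miR-206 for muscle, hsa-miR-122-5p for liver, and hsa-miR-223-3p, hsa-miR-142-5p, hsa-miR-142-3p, hsa-miR-150-5p, hsa-miR-155-5p and hsa-miR-146a-5p for blood. The prefix hsa marks a human miR. Their levels were read in HEK293T, a cell line derived from human embryonic kidney. Small RNA was sequenced from 3 libraries of cells depleted of the ribosomal protein RPL24 (RPL24 KD) with siPOOLs, which are pools of siRNAs, and from 3 libraries of cells given non-targeting siPOOLs (NC). Both groups received siPOOLs at 50 nM and were harvested 72 h later, a time that the label field calls day 72. A plasmid carrying miR-608, transfected 48 h into the siPOOL treatment and so 24 h ahead of the harvest, is part of the labelled protocol. The paper describes the sequencing as an experiment of its own. No read of miR-608 was counted in any of the 6 libraries. No source used here says that the libraries of a group came from separate cultures, so the p-values may measure only technical spread, and RPL24 depletion itself cannot be checked in small RNA libraries.

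A miR is cut from a hairpin precursor that yields a 5p and a 3p arm, and it finds its targets mainly through its seed, bases 2 to 8. MiR-1 and miR-133a are transcribed together in heart and skeletal muscle, where they act in muscle differentiation, and miR-206 is a skeletal muscle relative of miR-1. MiR-122 is the dominant miR of hepatocytes and a host factor of hepatitis C virus replication. MiR-223 marks myeloid cells, both arms of miR-142 are found across the blood lineages, and miR-150 marks mature lymphocytes. MiR-155 and miR-146a are less strictly confined to blood, since both are induced by inflammatory signalling, miR-146a through NF-kB.

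The mature sequences show which markers share a seed and which miRs outside the 10 could be taken for them. RefSeq entries (GRCh38.p14) were matched for 9 of the 10 marker miRs, all but miR-150-5p. They are written 5′ to 3′, with the seed in capitals, and miR-133b and miR-146b-5p follow as the nearest relatives of 2 markers.
hsa-miR-1-3p: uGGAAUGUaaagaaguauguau
hsa-miR-206: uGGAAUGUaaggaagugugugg
hsa-miR-133a-3p: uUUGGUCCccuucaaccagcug
hsa-miR-133b: uUUGGUCCccuucaaccagcua
hsa-miR-122-5p: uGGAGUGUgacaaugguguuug
hsa-miR-223-3p: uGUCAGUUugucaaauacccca
hsa-miR-142-5p: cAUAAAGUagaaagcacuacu
hsa-miR-142-3p: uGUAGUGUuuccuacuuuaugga
hsa-miR-155-5p: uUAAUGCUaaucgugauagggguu
hsa-miR-146a-5p: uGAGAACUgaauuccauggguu
hsa-miR-146b-5p: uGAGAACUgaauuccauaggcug

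MiR-1-3p and miR-206 were the only markers among these 9 to share a seed, and they differ at 4 of 22 bases (A11G, A17G, A21G and U22G, miR-1-3p first, positions counted from 1 at the 5′ end). The liver marker miR-122-5p has a seed that differs from that of miR-1-3p by A5G, and the miRs differ at 11 of 22 bases. MiR-133a-3p and miR-133b differ only in the last base (G22A). MiR-146a-5p and miR-146b-5p differ at 2 of their first 22 bases (G18A and U21C), and miR-146b-5p is 23 nt long. How reads that match several miRs were counted is not given in the sources used here, so the split of reads within miR-133a/b and within miR-146a/b is uncertain.

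The libraries held from 398721 to 611745 counts, and 3 counts in a library, taken here as the detection floor, corresponded to between 4.90 and 7.52 CPM (counts scaled to a library total of 1000000). Floors, and intervals of counts, shares and pooled ratios, cover counting error only, and reads are not independent molecules. The intervals of log2 fold changes given further below come from fits that also take in the spread between libraries. All libraries differed from their group's others by more than counting noise, with a chi-square per degree of freedom of 2.18 to 2.5 between RPL24 KD libraries and 9.72 to 17.4 between NC libraries. In each group the count table numbers libraries 1 and 2 as the labels do, and the library whose number no label has is called unnumbered.

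Most of the markers were at or near the floor in both groups. Of the 10, 3 had 0 counts in all 6 libraries, 7 had at least 1 read somewhere, and 2 (miR-1-3p and miR-146a-5p) had at least 3 counts in every library. Among all 2588 names, 53.4% had 0 counts in all libraries and 16.4% had at least 3 counts in every library. Together the 10 miRs took 256 to 291 CPM in RPL24 KD and 343 to 398 CPM in NC, and the muscle miRs made up 240 to 268 and 331 to 372 CPM of this, nearly all of it miR-1-3p. The 6 blood miRs together took 16.1 to 24.6 CPM in RPL24 KD and 7.79 to 25.1 CPM in NC, and the liver miR 0 to 1.63 and 0 to 3.90 CPM. The libraries are bulk RNA of 1 cell line, so fewer cells with a miR and less of it per cell cannot be told apart.

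**Figure D1:**
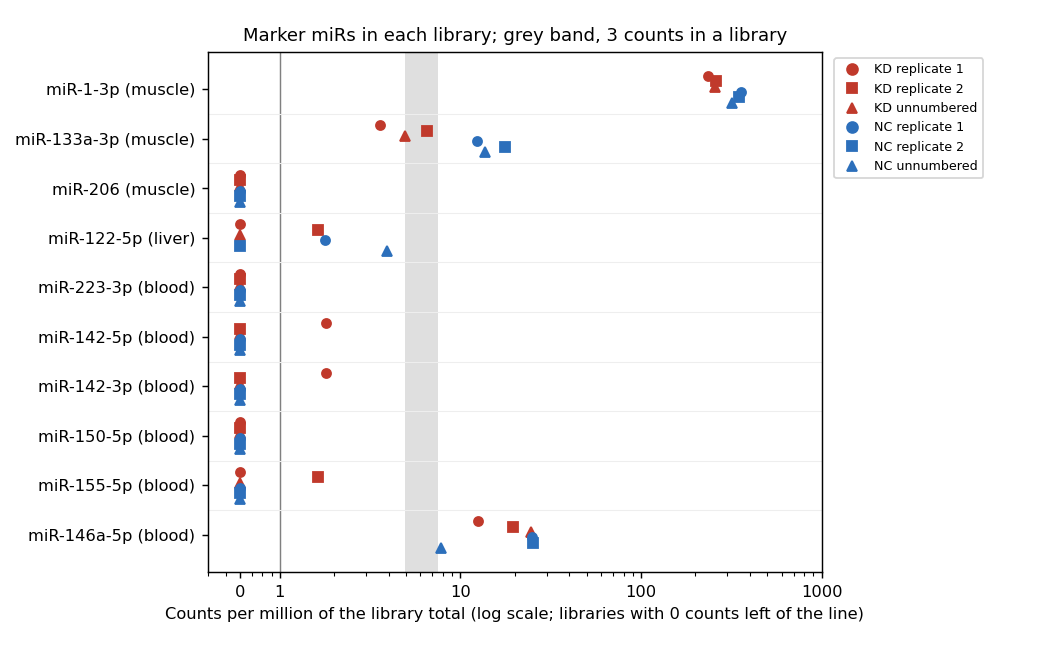
CPM (horizontal axis, log scale with a separate position for 0) of the 10 marker miRs (vertical axis) in each of the 3 RPL24 KD and 3 NC libraries. MiR-1-3p lies between 236 and 359 CPM in all libraries, miR-133a-3p and miR-146a-5p between 3.58 and 25.1 CPM, and the other 7 at 0 or at no more than 3.90 CPM.

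By mean CPM over the 6 libraries the order was miR-1-3p (296), miR-146a-5p (19.1), miR-133a-3p (9.77), miR-122-5p (1.22), miR-142-5p and miR-142-3p (0.298 each) and miR-155-5p (0.272), with the rest at 0. The lowest value of miR-1-3p in any library was far above the highest of any other marker. MiR-146a-5p exceeded miR-133a-3p in every library except the unnumbered NC library, and the ranges of these neighbours over the libraries overlapped, as did those of miR-133a-3p and miR-122-5p. The miRs below miR-122-5p rested on 1 count each and cannot be ordered.

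Hsa-miR-1-3p, which represses non-muscle genes in myocytes, was the most abundant of the markers in this kidney line. It had 132, 160 and 104 counts in the RPL24 KD libraries (replicate 1, replicate 2 and unnumbered), or 236, 262 and 256 CPM. In NC it had 203, 139 and 163 counts in the same order, or 359, 349 and 318 CPM. Every NC library was thus above every RPL24 KD library. MiR-1-3p stood at rank 138 of the 1205 miRs with a read, between 121 and 151 in the single libraries. Of the tested miRs, 222 had a lower mean CPM than miR-1-3p. For scale, the most abundant miRs of the line, miR-148a-3p (129462 CPM), miR-92a-3p (112585 CPM) and miR-7-5p (73949 CPM), had 437, 380 and 249 times its mean level.

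RPL24 KD was compared with NC by edgeR's quasi-likelihood test on the 360 miRs that passed the filter on low counts (filterByExpr, minimum count 10), with TMM normalization and Benjamini-Hochberg adjustment. Only 2 of the 10 markers passed that filter, miR-1-3p and miR-146a-5p, and 0 of these were called at an adjusted p under 0.05, against a background of 5.00% of the 360 miRs (18 miRs: 12, or 3.33%, higher and 6, or 1.67%, lower in RPL24 KD). Scaling by total counts instead of TMM moved this to 28 called, 10 higher and 18 lower. At an unadjusted p under 0.05 there was 1 of the 2 markers against 23.6% of all miRs tested. DESeq2 and limma likewise called 0 markers, with 1 at an unadjusted p under 0.05 in each. With edgeR's legacy setting, the default of the version used but turned off here, 1 marker (miR-1-3p) was called.

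In TMM-normalized CPM, miR-1-3p had 256 ± 13 in RPL24 KD and 337 ± 24.7 in NC (SD, n = 3 each). Its log2 fold change in RPL24 KD relative to NC (log2FC) was -0.40 (standard error 0.112, 95% interval -0.64 to -0.15), with an unadjusted p of 0.00340 and an adjusted p of 0.0557 in edgeR, just above the threshold. It was number 22 of the 360 miRs by p-value and number 33 from the lowest log2FC, where the median over all tested miRs was -0.01. The groups did not overlap, which held in the same direction for 12.8% of all miRs tested and in either direction for 27.5%. The pooled counts, 396 against 505, gave a ratio of RPL24 KD to NC of 0.734 per total count (exact 95% interval 0.642 to 0.839). This interval covers counting error only and leaves out the spread between libraries.

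Whether miR-1-3p was called depended on the fit, while its direction did not. Its log2FC was negative in all 17 alternative fits, from -0.48 to -0.35, and 6 of these called it. With total counts in place of TMM the adjusted p was 0.0272 and with robust edgeR 0.0326. With edgeR's legacy setting, a fit added after seeing the data, it was 0.0262. That setting is on by default in the version used and was turned off for the reported fit. The adjusted p was 0.0545 with RLE, 0.0522 with limma, 0.0955 without a filter, 0.128 with a minimum count of 5 and 0.180 with DESeq2. One library decided the call in the fits that left 1 out: without the unnumbered NC library, which had the lowest NC level, the adjusted p in edgeR was 0.0195, and over the 6 fits it ranged from 0.0195 to 0.224.

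**Figure D2:**
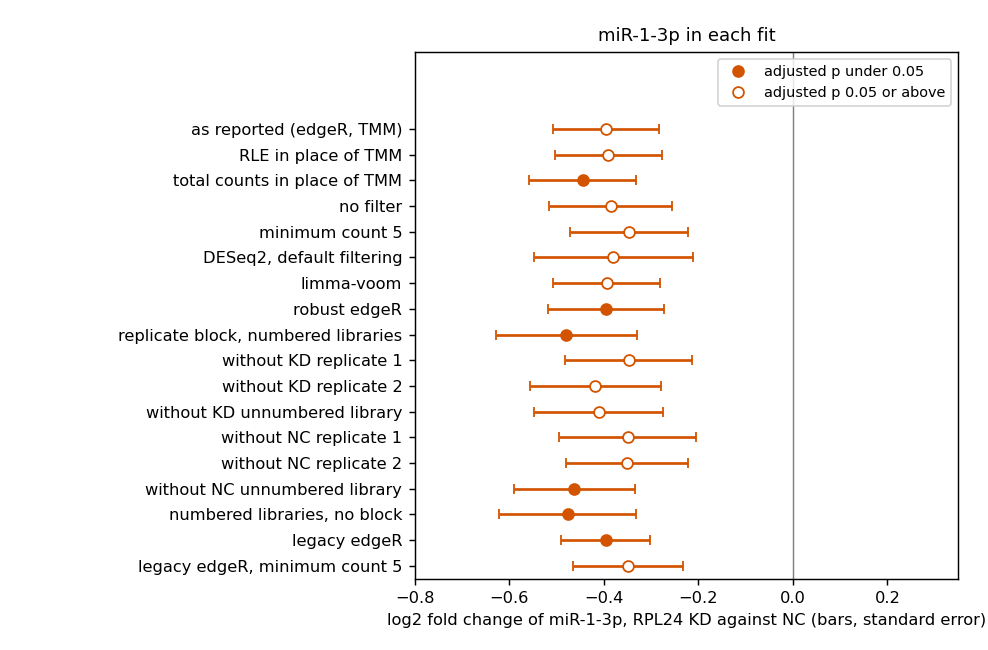
Log2FC of miR-1-3p in RPL24 KD against NC (horizontal axis, bars are standard errors) in the fit reported and in 17 alternative fits (vertical axis), filled where the adjusted p was under 0.05. All points lie between -0.48 and -0.35, and 6 of the alternatives are filled.

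The spread of miR-1-3p between libraries was no larger than counting alone would give, with a coefficient of variation of 5.08% in RPL24 KD and 7.32% in NC against 8.84% and 7.80% from the counts. The 3 tested miRs whose log2 CPM followed that of miR-1-3p most closely over the 6 libraries were miR-941 (Pearson r 0.98), miR-1307-3p (0.97) and miR-1180-3p (0.95). These values were picked as the highest over all tested miRs and describe 6 points that share the libraries, their depth and the difference between the groups. The log2FC values of these miRs were -0.21, -0.14 and -0.22, and none was called (adjusted p = 0.113, 0.203 and 0.131, edgeR).

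The other arm of the miR-1 hairpins was not seen. MiR-1-5p had 0 counts against 901 of miR-1-3p over all libraries, where 3 counts would be a share of 0.333%. In GENCODE 29 (GRCh38) miR-1-3p has 2 hairpin genes, and each lies beside a hairpin of miR-133a-3p. MIR1-1 (chr20:62554306-62554376, plus strand) is intronic in 2 transcripts of the noncoding gene MIR1-1HG, and MIR133A2 (chr20:62564912-62565013, plus strand), 10535 bases away, is intronic in 1 and exonic in 1 transcript of the same gene. MIR1-2 (chr18:21829004-21829088, minus strand) and MIR133A1 (chr18:21825698-21825785, minus strand) are 3218 bases apart, both within an exon of MIR133A1HG and opposite to introns of MIB1. The mature counts do not tell the hairpin genes of 1 miR apart.

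Hsa-miR-133a-3p, which acts on proliferation and differentiation of myoblasts, was present at a few reads a library, and its hairpins adjoin those of miR-1. It had 2, 4 and 2 counts in the RPL24 KD libraries, or 3.58, 6.54 and 4.92 CPM. In the NC libraries it had 7 counts each, or 12.4, 17.6 and 13.6 CPM. The groups did not overlap, but miR-133a-3p did not pass the filter on low counts and so had no test in the reported fit. Among the 360 miRs that passed the filter, 12.8% had groups that did not overlap in this direction. No such share was computed for miRs below the filter. The pooled 8 against 21 counts gave a ratio of 0.357 (exact 95% interval 0.137 to 0.839). That interval covers counting error only and leaves out the spread between libraries. The means were 5.11 ± 1.5 in RPL24 KD and 14.3 ± 2.78 in NC, in TMM-normalized CPM (SD, n = 3 each). In the fits that held it, the log2FC was -1.39 without a filter (adjusted p = 0.266, edgeR) and -1.35 with a minimum count of 5 (adjusted p = 0.129, edgeR), a filter that it passed only through the NC libraries. With DESeq2 it was -1.45 with an unadjusted p of 0.106 and no adjusted p. None of these fits called it.

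**Figure D3:**
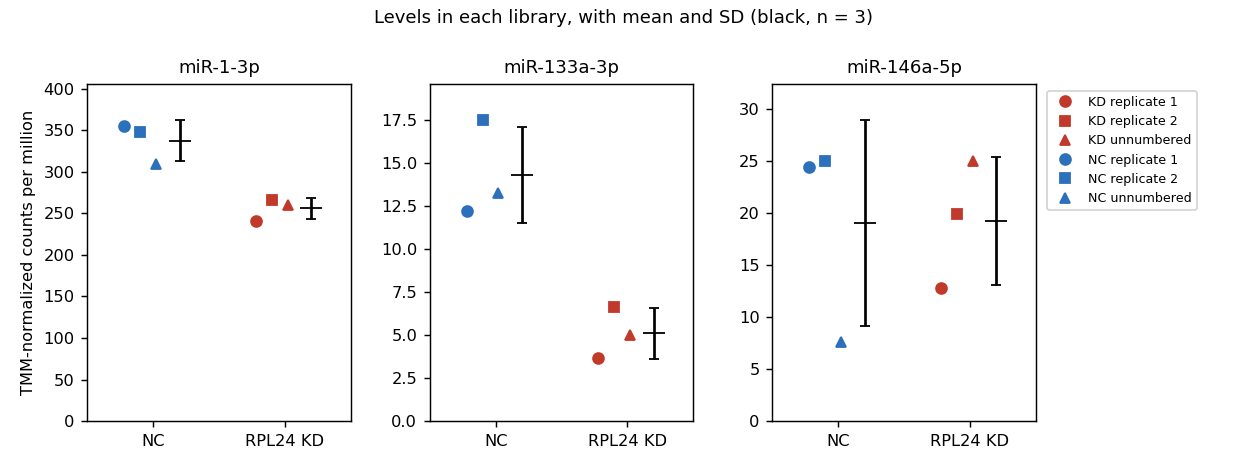
TMM-normalized CPM (vertical axes, each from 0) of miR-1-3p, miR-133a-3p and miR-146a-5p in the NC and RPL24 KD libraries (points), with mean and SD (black, n = 3). For miR-1-3p and miR-133a-3p all NC points lie above all RPL24 KD points, and for miR-146a-5p the groups overlap, with the unnumbered NC library lowest. Such separation in this direction held for 12.8% of the 360 miRs tested, miR-133a-3p not among them.

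The share of miR-133a-3p among the reads of miR-133a-3p and miR-1-3p needs no normalization and was chosen after the values were seen. It was 1.49%, 2.44% and 1.89% in the RPL24 KD libraries and 3.33%, 4.79% and 4.12% in the NC libraries. All NC shares were above all RPL24 KD shares, but the exact (Clopper-Pearson) 95% intervals of the single libraries overlapped, for example 0.181% to 5.29% in RPL24 KD replicate 1 and 1.35% to 6.75% in NC replicate 1. The means were 1.94 ± 0.475% and 4.08 ± 0.731% (SD, n = 3 each). The two-sided exact permutation p was 0.1, the smallest that 3 libraries against 3 allow. Because the share was chosen with the separated values in view, this p decides nothing. How often the shares of other pairs of miRs separate the groups was not computed. MiR-133a-5p, the other arm, had 4 counts in all against 29 of miR-133a-3p. MiR-133b, which differs from miR-133a-3p in the last base, had 1 count in RPL24 KD replicate 1 and 1 in NC replicate 1.

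Hsa-miR-206, the skeletal muscle miR with the seed of miR-1-3p, had 0 counts in each of the 6 libraries. At this depth the 95% interval for 0 counts reaches up to between 6.03 and 9.25 CPM in a library. Its hairpin gene MIR206 (chr6:52144349-52144434, plus strand) overlaps no other annotated gene and lies 4488 bases from MIR133B. MiR-613, which also has this seed, was at 0 too, so of the 3 miRs with this seed in the RefSeq table only miR-1-3p had reads.

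Among the further muscle miRs that come from myosin heavy chain genes, miR-208a-3p and miR-208b-3p were at 0 in all libraries. MiR-499a-5p, found in heart and slow muscle, had 6, 5 and 1 counts in RPL24 KD and 5, 4 and 8 in NC, and the groups overlapped. Of the 3 defining muscle markers, 1 was thus at 0, 1 near the floor and 1 clearly above it.

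Hsa-miR-122-5p, the hepatocyte miR, had 0, 1 and 0 counts in the RPL24 KD libraries and 1, 0 and 2 in the NC libraries, all under the floor of 3 counts. The pooled 1 against 3 counts gave a ratio of 0.312 with an exact 95% interval of 0.00595 to 3.89, so no difference was detectable at this depth. MiR-122-3p had 0 counts. The hairpin gene MIR122 (chr18:58451074-58451158, plus strand) lies in an exon of MIR122HG.

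Of the 3 other miRs used here as liver markers, miR-192-5p and miR-194-5p were far above miR-122-5p and miR-885-5p was not. MiR-192-5p, which is abundant in liver, gut and kidney alike, had a mean of 4007 CPM and stood at rank 40, and its neighbour miR-194-5p had 403 CPM. In TMM-normalized CPM miR-192-5p had 3787 ± 237 in RPL24 KD and 4243 ± 439 in NC (SD, n = 3 each). Its log2FC was -0.16 (standard error 0.0819, adjusted p = 0.253, edgeR), with the unnumbered NC library inside the RPL24 KD range. Without that library it was -0.25 and was called (adjusted p = 0.0123, edgeR), and without NC replicate 2 it was -0.10 (adjusted p = 0.574, edgeR). Over the 17 alternative fits the log2FC of miR-192-5p ranged from -0.31 to -0.10, and 3 of these fits called it. MiR-194-5p had a log2FC of -0.09 (adjusted p = 0.757, edgeR). MiR-885-5p had 3 counts over the 6 libraries, against 4 of miR-122-5p.

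Of the 10 markers, those of blood cells other than miR-146a-5p were at 0 or at 1 count. Hsa-miR-223-3p, the myeloid miR, and hsa-miR-150-5p, the lymphocyte miR, had 0 counts in all 6 libraries. Hsa-miR-142-5p and hsa-miR-142-3p had 1 count each, both in RPL24 KD replicate 1, and hsa-miR-155-5p had 1 count, in RPL24 KD replicate 2. Of all names, 223 had exactly 1 count over the libraries. No fold change can be given for any of these 5 miRs, since both groups were under the floor.

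Their hairpin genes are at chrX:66018870-66018979 (MIR223, plus strand, exonic in 2 transcripts of AL034397.3), chr17:58331232-58331318 (MIR142, minus strand, in an exon of AC004687.1 and opposite to introns of TSPOAP1-AS1), chr19:49500785-49500868 (MIR150, minus strand, no overlapping gene) and chr21:25573980-25574044 (MIR155, plus strand, in an exon of MIR155HG). The other arms miR-223-5p, miR-150-3p and miR-155-3p had 0 counts as well.

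Hsa-miR-146a-5p, a brake on inflammatory signalling, was the only one above the floor among the 6 blood miRs of the 10 markers. It had 7, 12 and 10 counts in the RPL24 KD libraries, or 12.5, 19.6 and 24.6 CPM. In NC it had 14, 10 and 4 counts, or 24.8, 25.1 and 7.79 CPM. The groups overlapped, and the NC libraries held both the highest and the lowest value.

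The means of miR-146a-5p were 19.3 ± 6.15 and 19.0 ± 9.91 TMM-normalized CPM (SD, n = 3 each). The log2FC was 0.0058 (standard error 0.451, 95% interval -0.96 to 0.97, adjusted p = 0.997, edgeR). The interval leaves room for a change of nearly 1 on the log2 scale in either direction, so the counts do not show that the level was the same. Without the unnumbered NC library the log2FC was -0.40 (adjusted p = 0.658, edgeR), and 6 of 17 alternative fits gave a negative value. The spread in NC, 52.1%, was above the 37.5% that counting gives, and in RPL24 KD it was 31.9% against 33.0%. The tested miRs closest to it over the 6 libraries were miR-23b-5p (Pearson r 0.96), miR-582-3p (0.89) and miR-505-5p (0.89). These values were picked as the highest over all tested miRs, and they rest on 6 points and few counts of miR-146a-5p.

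MiR-146b-5p, with the same seed and 2 differences in the first 22 bases, was far more abundant. It had 278, 276 and 197 counts in RPL24 KD and 259, 184 and 230 in NC, and its log2FC was 0.11 (standard error 0.0958, adjusted p = 0.533, edgeR). MiR-146a-5p made up 2.46%, 4.17% and 4.83% of the reads of the pair in RPL24 KD and 5.13%, 5.15% and 1.71% in NC. The shares overlapped, with means of 3.82 ± 1.23% and 4.0 ± 1.98% (SD, n = 3 each) and a two-sided exact permutation p of 0.8. This share was also chosen after the values were seen. MiR-146a-3p had 0 counts, and the hairpin gene MIR146A (chr5:160485352-160485450, plus strand) is exonic in 2 transcripts of MIR3142HG.

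Among the further blood miRs, those of red cells differed widely in level. MiR-451a, the main miR of erythrocytes, had 1 count in RPL24 KD replicate 1, 4 in NC replicate 2 and 0 elsewhere. Its cluster partner miR-144-3p had 1 count in all and miR-144-5p 0. MiR-486-5p, also abundant in red cells and encoded in the ANK1 gene, had 72, 77 and 39 counts in RPL24 KD and 66, 29 and 35 in NC. The groups overlapped, since NC replicate 1 lay inside the RPL24 KD range. Its log2FC was 0.49 (standard error 0.211, unadjusted p 0.0376, adjusted p = 0.191, edgeR), and without NC replicate 1 it was 0.81 and was called (adjusted p = 0.0313, edgeR). Without the unnumbered NC library it was 0.31 (adjusted p = 0.408, edgeR). MiR-342-3p, a miR of lymphoid and myeloid cells, had 330.0 CPM on average and a log2FC of 0.02 (adjusted p = 0.967, edgeR).

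Over the 20 miRs that accompany the markers (7 other arms and 13 further markers of the same tissues), 5 passed the filter on low counts and 0 were called by edgeR against the background of 5.00%, with 1 (miR-486-5p) at an unadjusted p under 0.05. DESeq2 called 0 with 0 at an unadjusted p under 0.05, and limma called 0 with 1. Of the 7 other arms, 6 were at 0 in all libraries. The log2FC values of the 5 tested had a median of 0.02, against -0.01 over all 360 miRs.

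**Figure D4:**
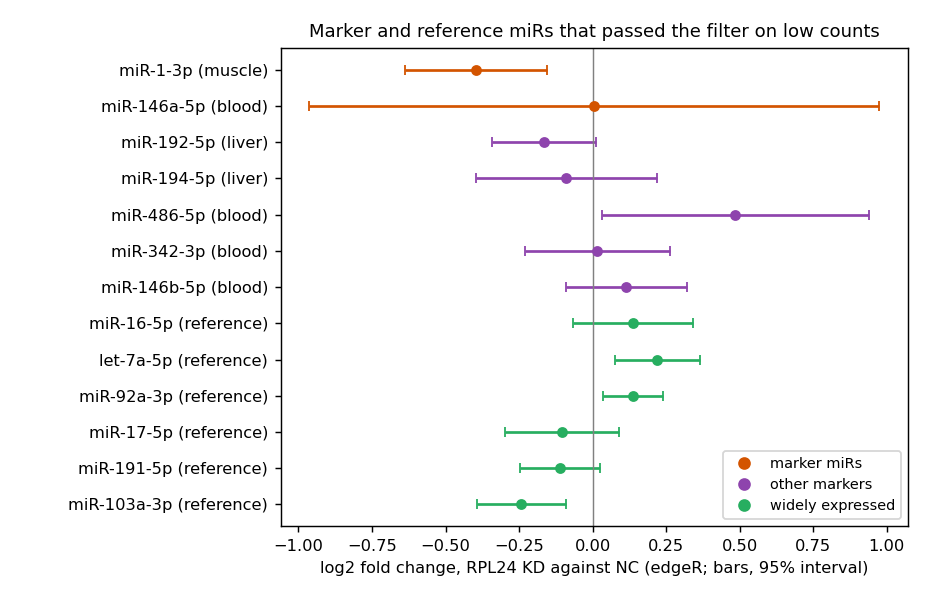
Log2FC between the groups (horizontal axis, bars are 95% intervals from edgeR) for the 2 marker miRs, 5 further markers and 6 widely expressed miRs that passed the filter on low counts. None had an adjusted p under 0.05, the interval of miR-1-3p lies below 0 (-0.64 to -0.15) and that of miR-146a-5p spans -0.96 to 0.97.

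The widely expressed miRs give a scale for these levels. MiR-16-5p, an abundant miR of many tissues, had a mean of 1073 CPM, 3.62 times miR-1-3p, and let-7a-5p had 12572 CPM. Of the 6 such miRs, 0 were called by edgeR in the reported fit and 3 had an unadjusted p under 0.05: let-7a-5p (log2FC 0.22, adjusted p = 0.0729), miR-92a-3p (0.14, adjusted p = 0.111) and miR-103a-3p (-0.24, adjusted p = 0.0570). Over the 17 alternative fits, miR-103a-3p was called in 6, let-7a-5p in 4, miR-92a-3p in 3 and miR-16-5p in 1. The paper lists miR-103a-3p as decreased and let-7a-5p as increased after RPL24 KD. These 6 are thus not a reference known to be unchanged. The log2FC of miR-1-3p, -0.40, was larger in size than that of each of the 6, but its difference from them was not tested.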

How the data were processed

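Per the authors' methods, reads were checked with FastQC, trimmed and filtered with Flexbar and aligned with miRExpress to miRBase, and the deposited values are raw counts per mature miR and library, without normalization. The authors compared the groups with DESeq2. The reads were not used here, and 0 columns of counts were left out.

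The numbered libraries were grouped by the treatment field of their labels, since the titles of the NC libraries name RPL24 KD too. The unnumbered library of each group has no matching label and was placed by the KD or NC in its column name. The members and lists were chosen with earlier results of these data known. Each miR named is a marker, its other arm, a further marker of the same tissues, a widely expressed miR, a miR with a shared seed, one of the 3 most abundant miRs, or one of the 3 tested miRs most correlated with a tested marker.

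The test was edgeR 4.0.16 (R 4.3.3), glmQLFit and glmQLFTest on the counts, with TMM, filterByExpr at a minimum count of 10, no replicate block and adjusted p under 0.05. The legacy setting, which is on by default in this version, was turned off to match an earlier processing of these counts, after both fits had been seen. With it on, 21 miRs were called in place of 18. DESeq2 1.42.0, limma 3.58.1 (voom), RLE, total counts, other filters, robust fits, a replicate block and leaving out each library were alternatives. Standard errors are those implied by the F statistic. Pooled ratios have exact conditional intervals. CPM uses total counts unless called TMM-normalized. The scripts were tested on simulated data. With 398721 to 611745 counts a library, 3 counts are 4.90 to 7.52 CPM.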

Additional observations from a re-analysis of the deposited data

How the results depend on the processing

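Of the 17 alternatives, 3 were added after seeing the data (legacy edgeR, the same with a minimum count of 5, and the 4 numbered libraries without a block). The 18 miRs called became 28 with total counts, 31 without a filter, 34 with robust edgeR, 34 with the numbered libraries and from 4 to 29 without one library (7 without RPL24 KD replicate 1, 4 without RPL24 KD replicate 2, 25 without NC replicate 1 and 29 without the unnumbered NC library). The 0 markers called became 1, miR-1-3p, with total counts (log2 fold change, log2FC, -0.45), robust edgeR (-0.40), legacy edgeR (-0.40) and the numbered libraries (-0.48), and 0 to 1 without one library (-0.46 to -0.35). The 0 accompanying miRs called became 1 with the numbered libraries and 0 to 1 without one library. What caused these shifts was not tested.

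The log2FC of miR-146a-5p, 0.0058, changed sign with total counts (-0.043), with the numbered libraries (-0.58) and without one library (-0.40 to 0.31, with -0.042 without RPL24 KD replicate 2 and -0.18 without the unnumbered RPL24 KD library). That of miR-342-3p was -0.034 with total counts and -0.079 to 0.098 without one library (-0.0021 without the unnumbered NC library). That of miR-194-5p was 0.14 with the numbered libraries and -0.17 to 0.099 without one library, and that of miR-17-5p 0.028 and -0.16 to 0.044. No other sign changed, and over the named miRs other than the markers 159 of 187 values kept their direction and side of the threshold, 18 came to pass it and 10 changed sign.

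The replicate number as a block, on the 4 numbered libraries, gave 52 called miRs, 1 marker and 1 accompanying miR, miR-192-5p (adjusted p = 2.46e-05, edgeR). It gave log2FC values of -0.48 for miR-1-3p (adjusted p = 0.0155, edgeR), -0.61 for miR-146a-5p, 0.16 for miR-194-5p, -0.0075 for miR-342-3p and 0.030 for miR-17-5p. Deviations of same-numbered libraries had a correlation of -0.02 over 360 miRs and, among the 166 averaging 100 counts or more, -0.21, and the numbers were taken as names only.

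With 10 counts in every library as the limit, 1 marker in place of 2 was detected. Ranks by the median were 139, 439 and 343 in place of 138, 438 and 355 for miR-1-3p, miR-133a-3p and miR-146a-5p. The ratio of the arms had no value, because no hairpin had reads of both arms in every library. Depth limits every marker other than miR-1-3p, since 3 counts are 4.90 CPM or more.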
